A study of Mus musculus with 11 samples.

Results

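The genes described here are 6 receptors and regulators that govern how T cells enter lymphoid organs, move within them and leave again: Ccr7, S1pr1, S1pr4, Klf2, Ccr9 and Cxcr5. They were named as a list of homing and egress genes and are 6 of the 52997 genes in the count table, and all 6 passed the filter on low counts. Their transcripts were read in 11 Smart-seq2 libraries, a method that copies and amplifies polyadenylated mRNA from small numbers of cells, each made from 1000 double-sorted clonotype+ Treg cells. The cells were CD45.2+ vTreg53 Tg+ Treg cells on a C57BL/6 background, which carry the TCR of 1 Treg clone from visceral adipose tissue (VAT), so the results concern a single specificity. They had been transferred into CD45.1 B6 hosts, which kept their own T cells, and the sample names give male and 15 weeks for every library. Spleen and lymph nodes were pooled (Spl/LN). Immunized hosts received CFA/Fat1562 at 6 weeks after transfer and IFA/Fat1562 1 week later, Fat1562 being a surrogate peptide that the vTreg53 TCR recognizes. The control hosts received the adjuvants without peptide according to the study's methods, whereas the labels call them unimmunized and name PBS, and the term adjuvant alone is used here. There were 3 libraries of Spl/LN with adjuvant alone, 3 of Spl/LN with adjuvant/Fat1562, 2 of VAT with adjuvant alone and 3 of VAT with adjuvant/Fat1562.

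CCR7 binds the chemokines CCL19 and CCL21 and brings T cells from blood into lymph nodes and to their T cell zones. S1PR1 senses sphingosine 1-phosphate (S1P), which is high in blood and lymph, and draws T cells out of lymphoid organs. The transcription factor KLF2, which FOXO1 induces in resting T cells, switches on S1pr1, and signals through the TCR lower it. CD69, a surface protein that rises on activation, binds S1PR1 and removes it from the cell surface. S1PR4 is another S1P receptor of lymphocytes, CCR9 answers to CCL25 of the small intestine and thymus, and CXCR5 answers to CXCL13 of B cell follicles.

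Total counts ran from 4490242 to 6570057 per library. In pairs of libraries of the same group the variance was 5.45 to 11.6 times that of counting error alone (chi-square over degrees of freedom). None thus looked like one library deposited again. Values are given as normalized counts, that is counts corrected for library size with TMM factors and rescaled so that libraries share the mean depth. The study's methods call the libraries biological replicates. Nothing says which mice gave which library, so the errors measure the spread between these libraries, which may be partly technical. Foxp3 was present at a mean of 7100 to 9831 normalized counts per group and Cd4 at 2396 to 3397, and all 8 Treg markers of the list had counts in every group. Because the libraries are bulk samples, fewer cells carrying a transcript and less transcript per cell cannot be told apart.

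For Klf2 and Ccr9, which the results below turn on, the RefSeq table (GRCm38.p6) held the sequence upstream of the transcription start, and S1pr4 was the other of the 3 members it held. Both sequences are shown because the change with Fat1562 of both genes differed between the tissues, and the capitals mark a match to a motif searched on both strands. The windows of the table hold the 250 bases before the RefSeq start and 50 after it, and only the bases upstream of the first GENCODE exon in them are printed. For Klf2 (chr8:72318812-72319032, plus strand, 221 bases) the capitals mark the MEF2 motif, an AT-rich palindrome, at 89 to 80 bases from the 3′ end of the printed sequence, which is 118 to 109 bases before the RefSeq start. For Ccr9 (chr9:123766961-123767168, plus strand, 208 bases) they mark CACCC, the core that KLF factors bind, at 31 to 27 bases from the printed end, which is 73 to 69 bases before the RefSeq start. The Ccr9 window lies inside the longer GENCODE span of the gene given below, not at its first base.
Klf2: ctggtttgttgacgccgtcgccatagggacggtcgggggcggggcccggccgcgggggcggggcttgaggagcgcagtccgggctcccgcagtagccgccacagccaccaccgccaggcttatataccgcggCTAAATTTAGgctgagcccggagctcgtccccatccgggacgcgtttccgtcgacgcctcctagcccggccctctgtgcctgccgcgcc
Ccr9: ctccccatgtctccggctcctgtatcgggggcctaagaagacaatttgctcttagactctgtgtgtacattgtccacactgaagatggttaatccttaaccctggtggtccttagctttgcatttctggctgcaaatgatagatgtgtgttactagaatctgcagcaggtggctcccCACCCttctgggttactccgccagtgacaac
The MEF2 motif stands in 3.69% of 32851 promoter windows of the same table and CACCC in 57.5%. CACCC was also present on the minus strand at 19 to 15 bases before the RefSeq start of Klf2, in the exon bases that are not printed, and on the minus strand of the S1pr4 window at 107 to 103 bases. The FOXO core GTAAACA, in 3.65% of windows, was in none of the 3. A match describes letters only and is not a bound site.

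**Figure D1:**
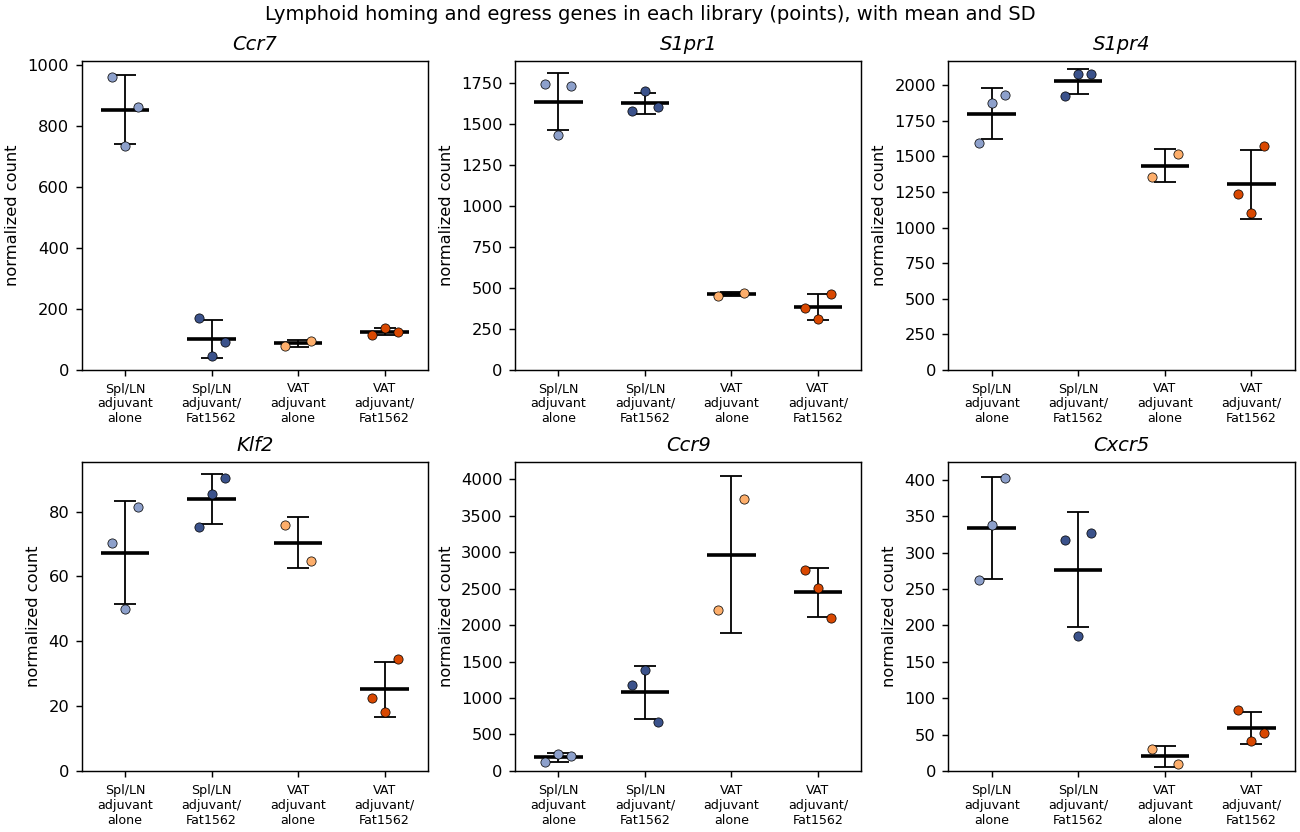
Normalized counts (linear axes from 0) of the 6 genes in each of the 11 libraries, by group. Points are libraries, horizontal lines group means and bars the SD (n = 2 for VAT with adjuvant alone, otherwise 3). Ccr7 was high only in the 3 Spl/LN libraries with adjuvant alone, S1pr1 and Cxcr5 were higher in all 6 Spl/LN libraries than in all 5 VAT libraries, Klf2 was lowest in the 3 VAT libraries with adjuvant/Fat1562, and Ccr9 was lowest in Spl/LN with adjuvant alone.

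The first question was how the cells of VAT differ from those of Spl/LN without peptide. Of the 6 genes, 3 were lower in VAT (Ccr7, S1pr1 and Cxcr5) and Ccr9 was higher, while S1pr4 and Klf2 did not pass the test. Among all 12932 genes tested 16.3% were called, 9.09% higher and 7.18% lower in VAT. Genes were called at a Benjamini-Hochberg adjusted p under 0.05 in edgeR's quasi-likelihood test over all tested genes. The median log2 fold change of the 6 genes was -1.08, beside -0.03 for all tested genes.

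Ccr7, the lymph node entry receptor (ENSMUSG00000037944.8, GRCm38 with GENCODE vM21 here and for the genes below, chr11:99144196-99155077, minus strand, 3 exons), stood at 962, 735 and 865 normalized counts in the Spl/LN libraries with adjuvant alone. In the VAT libraries with adjuvant alone it stood at 79.2 and 96.0. The groups did not overlap, and the log2 fold change was -3.29 ± 0.35 (SE, adjusted p = 2.9e-06). After adjuvant/Fat1562 the Spl/LN libraries fell to 169, 44.9 and 90.5, a log2 fold change of -3.07 ± 0.29 against adjuvant alone (adjusted p = 1.3e-05). All 3 were below the lowest Spl/LN library with adjuvant alone, and they were the most variable group for Ccr7, with a coefficient of variation of 61.8%. H2-Ab1 is a class II gene of dendritic cells, which also carry Ccr7. It fell in the same comparison from 111 ± 107 to 15.6 ± 4.97 normalized counts (adjusted p = 0.0088). With adjuvant alone it ran from 33 to 241 counts in a library. Of the 3 tested dendritic cell markers, H2-Ab1 alone was called there. The mean of Xcr1 was 13.6 with adjuvant alone and 15.9 with Fat1562, and that of Zbtb46 was 54.2 and 35.0. The part of these markers in the Ccr7 result was not tested. In VAT after adjuvant/Fat1562 the Ccr7 values were 115, 137 and 124. The difference from adjuvant alone was 0.52 on the log2 scale (95% interval -0.21 to 1.25, adjusted p = 0.43). Spl/LN with adjuvant alone was thus the highest group, and the other 3 group means lay within 87.6 to 125. Between VAT and Spl/LN after Fat1562 the groups overlapped, and the log2 difference of 0.30 (95% interval -0.33 to 0.92, adjusted p = 0.57) was not called. Without the first Spl/LN Fat1562 library, the one with the most Ccr7, that difference was 0.86 and was called (adjusted p = 0.035), and without the second it was -0.038.

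S1pr1, the exit receptor (ENSMUSG00000045092.8, chr3:115710433-115715072, minus strand, 2 exons), separated the tissues whatever the host received. The Spl/LN libraries held 1739, 1433 and 1727 normalized counts with adjuvant alone and 1576, 1697 and 1599 with adjuvant/Fat1562. The VAT libraries held 452 and 469 with adjuvant alone and 380, 309 and 465 with adjuvant/Fat1562. The lowest Spl/LN library was above the highest VAT library, and an exact two-sided permutation test that exchanged tissues within each immunization gave p = 0.005, the smallest it can give (adjusted p = 0.02 over 12 tests, log2 difference -1.96). No change with Fat1562 was called within a tissue. In Spl/LN the 95% interval of the log2 difference was -0.26 to 0.25, and in VAT it was -0.57 to 0.05, with adjusted p of 0.98 and 0.34.

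S1pr4, the other S1P receptor (ENSMUSG00000044199.6, chr10:81497747-81500132, minus strand, a single exon), differed less between the tissues. With adjuvant alone it stood at 1594, 1878 and 1932 normalized counts in Spl/LN and at 1353 and 1518 in VAT. With adjuvant/Fat1562 it stood at 1924, 2079.7 and 2080.0 in Spl/LN and at 1235, 1103 and 1576 in VAT. The highest VAT library was below the lowest Spl/LN library in both arms. The difference with adjuvant alone was -0.33 on the log2 scale (95% interval -0.61 to -0.05, adjusted p = 0.11) and was not called, although it was with quantile normalization in limma (-0.47, adjusted p = 0.021), while that after Fat1562 was -0.64 ± 0.12 (adjusted p = 0.0012). Over both arms the exact permutation test gave p = 0.01 (adjusted p = 0.03). The change with Fat1562 was not called in either tissue (0.17 in Spl/LN, -0.14 in VAT).

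Within a library, where the scaling between libraries cancels, the ratio of S1pr4 to S1pr1 was 0.917, 1.31 and 1.12 in Spl/LN with adjuvant alone and 1.22, 1.23 and 1.30 with adjuvant/Fat1562. In VAT it was 2.99 and 3.24 with adjuvant alone and 3.25, 3.57 and 3.39 with adjuvant/Fat1562. Every VAT library was above every Spl/LN library, and the log2 difference between the tissues was 1.47 (exact permutation p = 0.005, adjusted p = 0.015 over 6 ratio tests). The shift with peptide was 0.15 (exact permutation p = 0.085, adjusted p = 0.17). In CPM per kb of the longest coding transcript, S1pr4 stood at 148 ± 13.0 and S1pr1 at 105 ± 11.6 in Spl/LN with adjuvant alone (SD, n = 3), against 106 ± 10.4 and 26.7 ± 1.14 in VAT (SD, n = 2). S1pr4 was the higher of the S1P receptors per length in every group. Of the remaining receptors for S1P, S1pr2, which couples to G proteins that restrain migration, was present at 330 to 523 normalized counts per group, and S1pr3 and S1pr5 did not pass the filter, with at most 4 and 16 counts in a library.

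**Figure D2:**
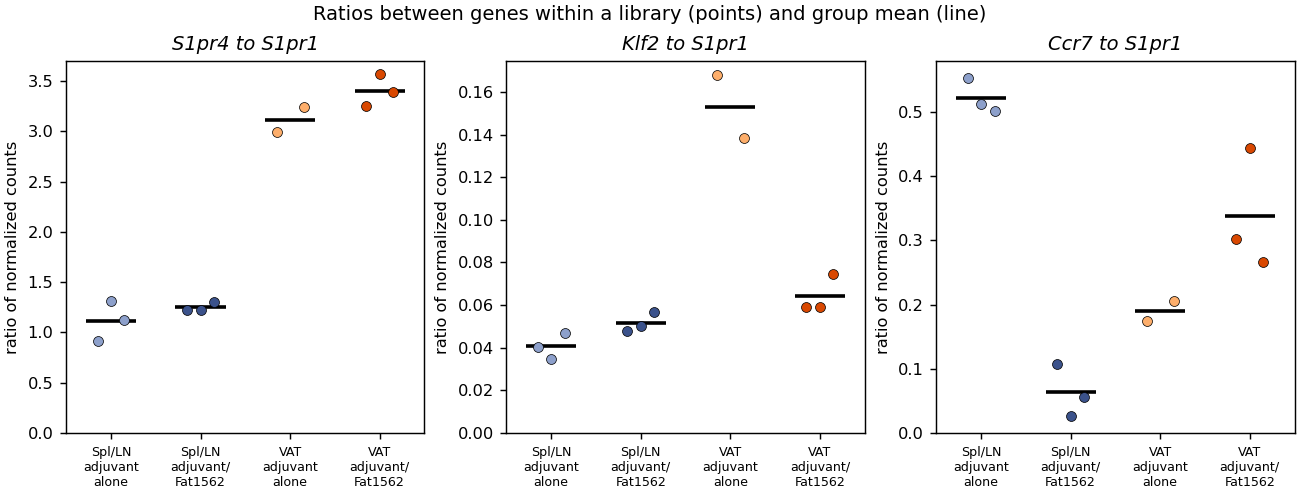
Ratios of normalized counts within each library (linear axes from 0) for S1pr4 to S1pr1, Klf2 to S1pr1 and Ccr7 to S1pr1. Points are libraries and lines group means. S1pr4 to S1pr1 was 0.917 to 1.31 in Spl/LN and 2.99 to 3.57 in VAT, Klf2 to S1pr1 was highest in VAT with adjuvant alone, and Ccr7 to S1pr1 was lowest in Spl/LN with adjuvant/Fat1562.

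Klf2, the factor that drives S1pr1 (ENSMUSG00000055148.7, chr8:72319033-72321656, plus strand, 3 exons), was a low transcript, with 18 to 113 counts in a library. It stood at 70.4, 49.996 and 81.3 normalized counts in Spl/LN with adjuvant alone and at 75.9 and 64.9 in VAT. The groups overlapped, and the log2 difference was 0.07 (95% interval -0.63 to 0.76, adjusted p = 0.92). With adjuvant/Fat1562 it stood at 75.3, 85.5 and 90.5 in Spl/LN and at 22.5, 18.3 and 34.6 in VAT. The 3 VAT libraries with Fat1562 were below every other library. The fall in VAT was -1.47 ± 0.34 on the log2 scale (adjusted p = 0.011), and the difference from Spl/LN after Fat1562 was -1.72 ± 0.31 (adjusted p = 8.8e-04). The fall in VAT was no longer called without the first VAT library with adjuvant alone (-1.36, adjusted p = 0.095) or without the second with Fat1562 (-1.29, adjusted p = 0.061). Klf2 and S1pr1 did not keep one ratio. Klf2 to S1pr1 was 0.0349 to 0.0471 in Spl/LN with adjuvant alone, 0.138 and 0.168 in VAT with adjuvant alone, 0.0478 to 0.0566 in Spl/LN with Fat1562 and 0.0592 to 0.0745 in VAT with Fat1562. The tissue difference of that log2 ratio over both arms was 1.13 (exact permutation p = 0.005, adjusted p = 0.015), made up of 1.91 with adjuvant alone and 0.35 with Fat1562. The tissue dissociation list holds 15 immediate early and stress genes such as Fos. These rise when tissue is digested and in part on TCR signalling, and they moved with the tissue too. In each arm 14 of the 15 were called higher in VAT, against 9.09% (adjuvant alone) and 8.26% (Fat1562) of all tested genes. The exception after Fat1562 was Egr1, a gene that TCR signals induce, which was lower in VAT (433 ± 101 against 862 ± 107 normalized counts, -0.99 ± 0.19, adjusted p = 0.0012) and rose with Fat1562 in Spl/LN (0.92 ± 0.18, adjusted p = 0.0078). The summed level of the 15 was 8034 to 9720 normalized counts in the Spl/LN libraries, 103810 to 123140 in VAT with adjuvant alone and 44870 to 55838 in VAT with Fat1562. Their part in the Klf2 and Cd69 results, and in the other differences between the tissues, was not tested. The study's methods describe a collagenase digestion for VAT and none for spleen or lymph nodes. Tissue and digestion therefore cannot be told apart in any comparison of VAT with Spl/LN.

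Ccr9, the receptor for CCL25 (ENSMUSG00000029530.16, chr9:123678439-123784330, plus strand, 5 exon blocks), went the other way from Ccr7. It stood at 118, 233 and 203 normalized counts in Spl/LN with adjuvant alone and at 2205 and 3724 in VAT, a log2 fold change of 4.01 ± 0.29 (adjusted p = 2.0e-08). In Spl/LN with adjuvant/Fat1562 it stood at 1173, 1389 and 672. Each was above the highest library with adjuvant alone, and the rise was 2.54 ± 0.27 on the log2 scale (adjusted p = 3.3e-05). In VAT with adjuvant/Fat1562 it stood at 2757, 2506 and 2094, which overlapped VAT with adjuvant alone (log2 difference -0.27, 95% interval -0.82 to 0.28, adjusted p = 0.61). VAT stayed above Spl/LN after Fat1562, by 1.19 ± 0.24 (adjusted p = 0.0023). The exact permutation test of tissue gave p = 0.005 (adjusted p = 0.02). The order of the levels was Spl/LN with adjuvant alone, Spl/LN with Fat1562 and then both VAT groups. Of the 38-base stretches of the Ccr9 exons, 20.7% also occur in other annotated genes, among them an antisense transcript, AC165425.1, that overlaps 1932 exon bases, and whether the counting used strand is not given in the sources used here, so part of the Ccr9 count is uncertain.

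Cxcr5, the receptor for follicles (ENSMUSG00000047880.15, chr9:44511787-44561877, minus strand, 5 exon blocks), was lower in VAT in both arms. It stood at 262, 337 and 403 normalized counts in Spl/LN with adjuvant alone and at 30.4 and 9.98 in VAT, a log2 fold change of -4.01 ± 0.42 (adjusted p = 2.3e-06). With adjuvant/Fat1562 it stood at 318, 186 and 327 in Spl/LN and at 84.3, 40.7 and 52.0 in VAT, a log2 fold change of -2.24 ± 0.31 (adjusted p = 5.7e-05). No VAT library reached the lowest Spl/LN library, and the exact permutation test of tissue gave p = 0.005 (adjusted p = 0.02). Within VAT the 3 Fat1562 libraries were above both libraries with adjuvant alone, and the rise of 1.499 ± 0.44 was called (adjusted p = 0.044). That call rests on 28 and 8 counts in the VAT libraries with adjuvant alone and was lost under 8 of 18 alternatives. Without the second of those libraries the rise was 0.94 (adjusted p = 0.36) and without the first it was 2.53 (adjusted p = 0.029). It was also lost without the first VAT library with Fat1562 (1.16, adjusted p = 0.15), and without the third (1.58, adjusted p = 0.065). The second Spl/LN library with adjuvant alone and the first and the third Spl/LN libraries with Fat1562, when left out, took the adjusted p to 0.052, 0.056 and 0.053. B cells also carry Cxcr5 and Ccr7. Of the 10 B cell markers listed, 4 passed the filter. Ighd, the IgD heavy chain, was lower in VAT with adjuvant alone (172 ± 24.2 against 17.03 ± 4.14 normalized counts, -3.34 ± 0.41, adjusted p = 1.2e-05). It was lower there after Fat1562 too (121 ± 9.66 against 41.8 ± 21.4, -1.52 ± 0.31, adjusted p = 0.0022). Cd79b was lower in VAT after Fat1562 (-1.18 ± 0.27, adjusted p = 0.0059) but was not called with adjuvant alone. Cd79a was not called between the tissues, at 12.2 ± 4.37 in Spl/LN and 15.1 ± 12.2 in VAT with adjuvant alone. After Fat1562 it stood at 14.9 ± 8.72 and 17.6 ± 9.47. With Fat1562 in VAT, where Cxcr5 rose, Ighm was called lower (-1.19 ± 0.35, adjusted p = 0.042). Its mean was 17281 ± 15933 normalized counts with adjuvant alone and 7547 ± 1104 with Fat1562. The 2 VAT libraries with adjuvant alone thus lay far apart, with an SD close to their mean. Ms4a1 had 0 to 6 counts in a library, whereas Ighm had 5547 to 22887. The summed level of the 10 B cell markers was 12238 to 17330 normalized counts in Spl/LN, 6136 and 28746 in VAT with adjuvant alone and 6430 to 8644 in VAT with Fat1562, and the part of these markers in the Cxcr5 difference was not tested.

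After Fat1562, 5 of the 6 genes differed between VAT and Spl/LN, 4 lower in VAT and Ccr9 higher, where 15.0% of all tested genes were called, 8.26% higher and 6.73% lower. The gene that did not differ was Ccr7. With Fat1562 in VAT, 2 of the 6 were called, Klf2 lower and Cxcr5 higher, against 8.30% of all genes (4.33% higher and 3.97% lower). With Fat1562 in Spl/LN, 2 were called, Ccr7 lower and Ccr9 higher, against 3.98% (2.58% higher and 1.40% lower). The interaction of tissue and immunization, which tests whether the Fat1562 change in VAT differs from that in Spl/LN, was called for 3 of the 6, against 3.72% of all genes (1.70% higher and 2.02% lower). It was 3.59 ± 0.45 on the log2 scale for Ccr7 (adjusted p = 2.4e-04), -2.82 ± 0.37 for Ccr9 (adjusted p = 3.2e-04) and -1.79 ± 0.45 for Klf2 (adjusted p = 0.034). For Cxcr5 it was 1.77 ± 0.52 and was not called (adjusted p = 0.070), although it was with DESeq2 (adjusted p = 0.0096), with a replicate block (adjusted p = 0.049) and without the first VAT library with adjuvant alone (adjusted p = 0.044), and without a filter, where the fit did not use the gene's own spread (adjusted p = 3.3e-04). For S1pr1 and S1pr4 the 95% intervals were -0.65 to 0.15 and -0.68 to 0.06. The Klf2 call was lost, at adjusted p from 0.050 to 0.13, without any 1 of 9 libraries, that is each VAT library except the third with Fat1562 and each Spl/LN library except the third with adjuvant alone. The comparisons share libraries and are not independent of each other. An exact permutation test of Fat1562 averaged over the tissues called 0 of the 6 (smallest p = 0.075, adjusted p = 0.15, for Ccr9), and it adds up changes of opposite sign for Ccr7, Klf2, Cxcr5 and Ccr9.

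**Figure D3:**
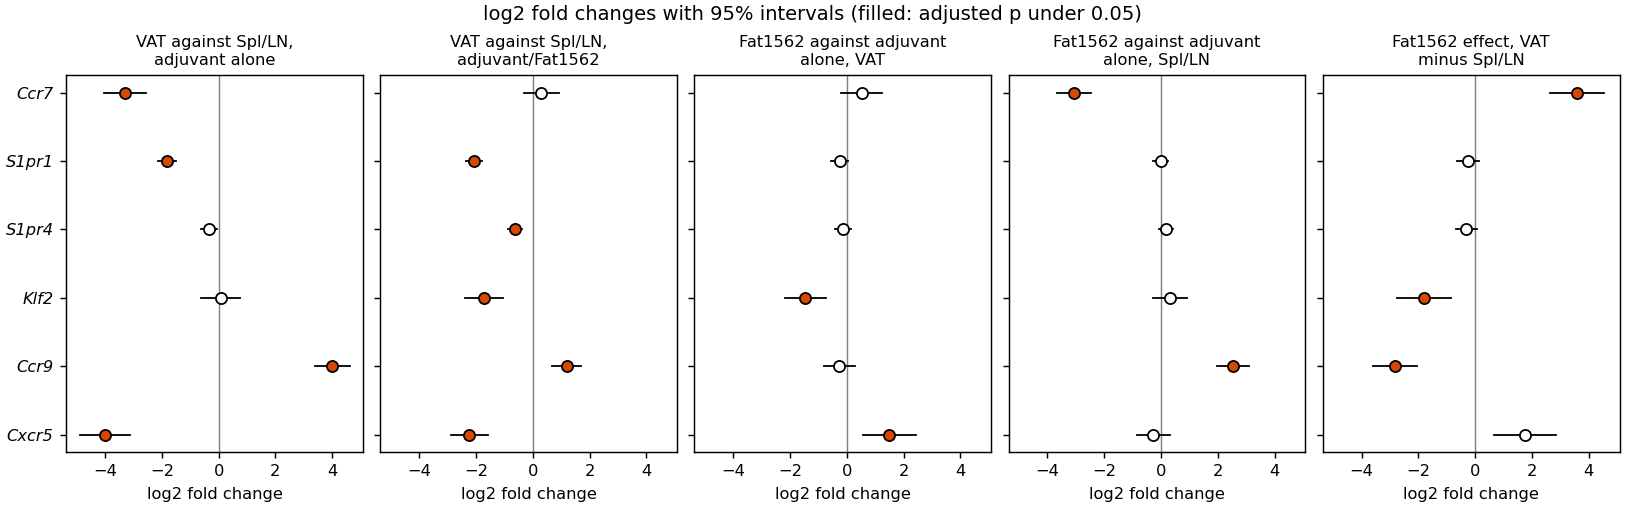
The log2 fold change of each of the 6 genes (points) with its 95% interval (lines) in the 4 comparisons and the interaction, from edgeR's fit of all 11 libraries. Filled points have an adjusted p under 0.05, and 4, 5, 2, 2 and 3 genes are filled from left to right.

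The 3 partner genes Cd69, Il7r and Foxo1 act in the same pathways. Cd69, which removes S1PR1 from the surface, stood at 6462 and 4967 normalized counts in VAT with adjuvant alone and at 952 to 1018 in Spl/LN, a log2 fold change of 2.52 ± 0.13 (adjusted p = 2.8e-10). In VAT with Fat1562 it stood at 1979, 1425 and 1546, a fall of 1.79 on the log2 scale (SE 0.13, adjusted p = 1.9e-07), and still above the 1023 to 1104 of Spl/LN with Fat1562 (0.63 ± 0.12, adjusted p = 0.0012). S1pr1 transcript was low in VAT both where Cd69 transcript was highest and where Cd69 had fallen. CD69 acts on the S1PR1 protein, which was not measured, and a link between the transcripts was not tested. Il7r, the IL-7 receptor chain that FOXO1 also induces, was higher in VAT with adjuvant alone (3610 ± 1005 against 2064 ± 89.6, log2 fold change 0.81, adjusted p = 5.1e-04). Its later comparisons were called less firmly, at adjusted p of 0.043 between the tissues after Fat1562 and 0.047 with Fat1562 in VAT, and were lost under 8 and 11 of 18 alternatives. Foxo1 itself ran from 390 to 533 normalized counts per group. Its difference between the tissues with adjuvant alone was -0.45 on the log2 scale (adjusted p = 0.064) and was not called, but it was called without the second or the third Spl/LN library with adjuvant alone and when only genes with a mean above 50 were tested, at an adjusted p down to 0.040.

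**Figure D4:**
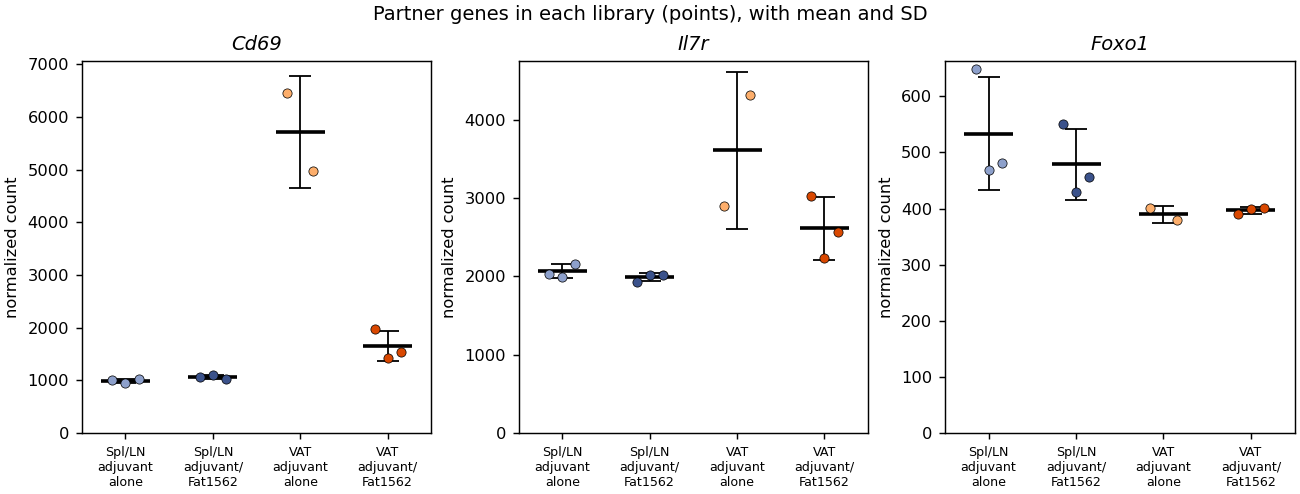
Normalized counts (linear axes from 0) of Cd69, Il7r and Foxo1 in each of the 11 libraries, with group means and SD. Cd69 was highest in the 2 VAT libraries with adjuvant alone.

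Ccr9 was then set beside other genes of gut homing, a list of 9 genes of integrins, chemokine receptors and retinoic acid receptors. In Spl/LN with Fat1562, 7 of the 9 were called, 2 higher and 5 lower, with a median log2 fold change of -0.86 beside 0.00 for all tested genes. Of all tested genes 3.98% were called there, 2.58% higher and 1.40% lower. Itga4, the alpha-4 integrin chain that pairs with Itgb7 for entry into the gut, rose from 943 ± 202 to 1604 ± 183 normalized counts (0.76 ± 0.13, adjusted p = 0.0025), and Itgb7 rose from 12909 ± 913 to 17071 ± 1935 (adjusted p = 0.044). Itgae, the chain that binds E-cadherin, fell from 5489 ± 358 to 2071 ± 441 (-1.41 ± 0.12, adjusted p = 3.4e-06). The receptor Gpr15, which homes T cells to the colon, fell from 491 ± 61.5 to 174 ± 67.0, and Ccr10, a receptor of skin and mucosal homing, fell from 261 ± 118 to 19.5 ± 11.5. Ccr6 fell from 774 ± 38.2 to 416 ± 71.8. The list thus split, with Ccr9, Itga4 and Itgb7 higher and the other homing receptors named here lower. Between VAT and Spl/LN with adjuvant alone, 6 of the 9 were called, Itga4 and Rara higher and 4 lower, against 16.3% of all tested genes. Itga4 was at 1.30 ± 0.14, Itgae at -1.59 ± 0.14, Gpr15 at -2.63 ± 0.37 and Ccr10 at -5.98 ± 0.77. After Fat1562 1 was higher and 5 lower, against 15.0% of all tested genes called, and Ccr10 had no count in any VAT library with Fat1562. With Fat1562 in VAT 3 were called, Ccr6, Gpr15 and Rara, against 8.30% of all tested genes, and these were lower. The Fat1562 change differed between the tissues for Itgae (interaction 1.34 ± 0.18, adjusted p = 3.2e-04) and for Itga4 (-0.72 ± 0.19, adjusted p = 0.048).

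**Figure D5:**
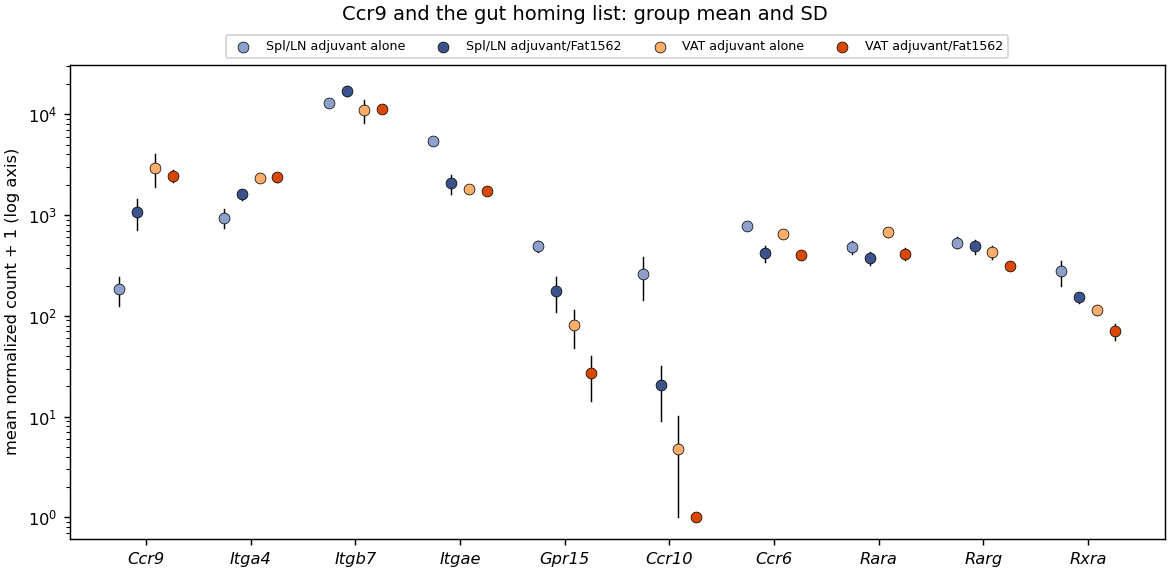
Mean normalized count plus 1 (log axis) of Ccr9 and the 9 genes of the gut homing list in the 4 groups, with SD as vertical lines. Ccr9 and Itga4 are lowest in Spl/LN with adjuvant alone, and Itgae, Gpr15, Ccr10 and Ccr6 are highest there.

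Among 18 genes of lymph node entry adhesion, 11 differed between VAT and Spl/LN with adjuvant alone, 4 higher and 7 lower in VAT (median -0.28). Of all tested genes 16.3% were called there, 9.09% higher and 7.18% lower, with a median of -0.03. Itgb1, the beta-1 integrin chain, was lower (1065 ± 42.2 against 214 ± 64.9, -2.31 ± 0.25, adjusted p = 4.1e-06), as was Rasgrp2, the exchange factor that activates Rap1 and through it LFA-1 (341 ± 55.5 against 94.0 ± 23.5, -1.85 ± 0.25, adjusted p = 3.4e-05). Rasgrp2 fell again in VAT with Fat1562 (-1.40, adjusted p = 0.0027), while Fut7, a fucosyltransferase, rose (97.9 ± 9.68 to 218 ± 24.5, adjusted p = 0.0027). In all, 5 of the 18 were called, 3 higher and 2 lower, against 8.30% of all tested genes. After Fat1562, 2 were higher and 6 lower in VAT, against 15.0% of all tested genes called. Among those lower was Itgal, the LFA-1 alpha chain (3833 ± 531 against 2342 ± 101, -0.71 ± 0.10, adjusted p = 4.7e-05). In Spl/LN with Fat1562, 3 were higher and 1 lower, against 3.98% of all tested genes called.

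Of 12 tested genes that signal from or recycle the S1P receptors, 1 was called between the tissues with adjuvant alone and 1 with Fat1562 in VAT, in both cases Cd69. Of all tested genes 16.3% and 8.30% were called in these comparisons, so the values here describe single genes. After Fat1562, 2 were higher in VAT (Cd69 and Gna13) and 2 lower (Rac2 and S1pr2), where 15.0% of all tested genes were called. In Spl/LN, where 3.98% were called, Gnai2, the G protein subunit through which S1PR1 signals, rose with Fat1562 (775 ± 35.7 to 1019 ± 23.2, adjusted p = 0.0498). Of 10 tested genes of S1P metabolism, 2 were called between the tissues with adjuvant alone, beside 16.3% of all tested genes, and 0 after Fat1562. With Fat1562, 2 were called in VAT and 1 in Spl/LN, beside 8.30% and 3.98%. Sgpl1, the lyase that breaks S1P down, was lower in VAT with adjuvant alone (709 ± 72.3 against 505 ± 68.2, adjusted p = 0.017) and rose in VAT with Fat1562 (to 773 ± 36.7, adjusted p = 0.0074). Sgpp1, an S1P phosphatase, was also lower in VAT with adjuvant alone. Plpp2, a lipid phosphate phosphatase, rose with Fat1562 in both tissues, from 38.1 ± 6.397 to 106 ± 31.0 in Spl/LN (1.47 ± 0.32, adjusted p = 0.015) and from 29.3 ± 18.4 to 83.0 ± 2.64 in VAT (1.48 ± 0.39, adjusted p = 0.024).

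Of 19 tested genes known to act on Klf2 or beside it, 3 were called in each tissue comparison, a share near the 16.3% and 15.0% of all tested genes, so the values that follow describe single genes. Klf3, a related factor, was lower in VAT in both arms (381 ± 45.0 against 42.6 ± 17.3 with adjuvant alone, 351 ± 28.4 against 30.2 ± 13.0 with Fat1562, adjusted p = 7.7e-07 and 5.6e-08). Pik3ip1, an inhibitor of PI3 kinase, was lower in VAT (-1.41 ± 0.23, adjusted p = 2.7e-04, and -1.61 ± 0.21, adjusted p = 3.1e-05) and fell with Fat1562 in both tissues, by 0.82 in Spl/LN (adjusted p = 0.021) and by 1.02 in VAT (adjusted p = 0.011), on the log2 scale. In VAT with Fat1562 the kinase genes Map3k3 and Pik3cd were lower as well.

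Of 13 tested genes of quiescent T cells, 8 differed between the tissues with adjuvant alone, 2 higher and 6 lower in VAT, and 9 after Fat1562, 2 higher and 7 lower (medians -0.94 and -0.82). Of all tested genes 16.3% and 15.0% were called, with medians of -0.03 and -0.005. Il6ra, a chain of the IL-6 receptor, was lower in VAT in both arms (-1.94 ± 0.21 and -1.90 ± 0.20) and fell with Fat1562 in Spl/LN (-1.33 ± 0.18, adjusted p = 2.6e-04) and in VAT (-1.29 ± 0.23, adjusted p = 0.0014). Of 15 tested genes of a follicular T cell list, set beside Cxcr5, 10 differed with adjuvant alone, 5 in each direction, against 16.3% of all tested genes. The list also holds genes that are low in follicular T cells. Of these, Id2 and Il2ra were among the 5 higher in VAT, so the counts do not describe the follicular program as a whole. Id3, which restrains E proteins, was at 869 ± 62.0 normalized counts in Spl/LN and 30.8 ± 10.1 in VAT (-4.80 ± 0.21), whereas its relative Id2 was at 513 ± 80.8 and 3393 ± 169.9 (2.73 ± 0.18). Sh2d1a and Slamf6, an adaptor and a receptor of T cell contact with B cells, were lower in VAT (-2.14 ± 0.21 and -2.95 ± 0.18). With Fat1562 Pdcd1, the receptor PD-1, rose in Spl/LN from 1103 ± 178 to 2474 ± 296 (1.17 ± 0.13, adjusted p = 7.2e-05). Bcl6, the defining factor of follicular T cells, ran from 51.8 ± 2.66 in VAT with adjuvant alone to 118 ± 45.1 in Spl/LN with Fat1562.

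Of the chemokines that these receptors bind, Ccl19 and Ccl21a had no count in any library and Cxcl13 had at most 1. Ccl25, the ligand of CCR9, passed the filter with 17 to 81 counts in a library, a level like that of Klf2. Cxcl12, a lymphoid chemokine that none of the 6 genes' products binds, had at most 19. Fibroblast and stromal markers summed to 15.0 to 60.7 normalized counts in a library and macrophage markers to 32.4 to 146. Endothelial markers summed to 256 to 601, and almost all of it was Pecam1, which T cells also express. Adipocyte markers summed to 56.3 to 136, CD8 T and NK cell markers to 96.2 to 195 and dendritic cell markers to 64.0 to 301. Of the 8 dendritic cell markers listed, 6 had a count in VAT with Fat1562 and 3 passed the filter. These 3, Xcr1, H2-Ab1 and Zbtb46, were higher in VAT after Fat1562 (1.91 ± 0.53, 1.92 ± 0.58 and 1.61 ± 0.39, adjusted p = 0.020, 0.033 and 0.0089). Xcr1 was higher also with adjuvant alone (2.28 ± 0.58, adjusted p = 0.010). Of all tested genes 8.26% and 9.09% were called higher in these comparisons. Klrb1c, an NK cell receptor, rose with Fat1562 in Spl/LN from 2.23 ± 1.35 to 25.5 ± 8.07 normalized counts (adjusted p = 0.046) and was lower in VAT after Fat1562 (adjusted p = 0.0086).

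Finally, for each of the 6 genes the transcripts with the most similar pattern were sought among 7373 tested genes with a mean normalized count of at least 100, by Pearson's r of log2(normalized count + 1) over the 11 libraries. The points fall into 4 groups, so r describes mainly the group levels. Ccr7 was most like Itgae (0.96), which had 5489 ± 358 normalized counts in Spl/LN with adjuvant alone and 1742 to 2071 in the other groups, then Abcg1 (0.94) and Ift80 (0.92). S1pr1 was most like Klf3 (0.99), Id3 (0.98) and Il16 (0.98). S1pr4 was most like Slc9a9 (0.95), AI467606 (0.94) and Trbj2-5 (0.93). Klf2 was most like Dusp7 (0.96), a phosphatase of ERK, which had 134 to 161 normalized counts in 3 groups and 76.2 ± 11.7 in VAT with Fat1562, then Coro2b (0.95) and Pitpnc1 (0.93). Ccr9 was most like Itga4 (0.97), Rap1b (0.96) and Atxn1 (0.96), and Cxcr5 was most like Btla (0.97), Babam1 (0.97) and Tbc1d4 (0.96). No pair of the 6 genes was among another's 3 closest.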

How the data were processed

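The 11 libraries were mapped to 4 groups by the sample labels, and each column of the table matched 1 label. The authors deposited a table of counts, whole numbers of reads per gene symbol without normalization, for 52997 genes from paired reads of 38 bases after 18 PCR cycles. The submitters' processing notes name STAR 2.5.4, featureCounts and mm10 without roles, and the study's methods name Cuffquant. Strand setting and annotation are not given in the sources used here, and no molecular identifiers are named, so a count is of amplified fragments. After scaling to the mean total, the 12932 genes whose mean exceeded 10 in any group were fitted in all 11 libraries with edgeR 4.0.16 in R 4.3.3 (TMM, quasi-likelihood test, prior count 0.125), with Benjamini-Hochberg adjustment over all tested genes and calls at an adjusted p under 0.05. The design had allowed for normalized values, and the count test was used because the table holds counts. Fold changes carry SE and 95% intervals, group means the SD. Exact two-sided permutation tests used log2(normalized count + 1), with labels exchanged within the other factor (200 arrangements), in Python 3.11.15 with numpy 2.4.6. The steps were tested on simulated data. The 6 genes and the gene lists were chosen with earlier results of these data known. Named are the 6 genes, Foxp3, Cd4, the 3 partners, up to 4 called genes with the largest change in each list and comparison, and the 3 most similar genes of each member. Bcl6, S1pr3, S1pr5, Cxcl12, Cxcl13, Ccl19, Ccl21a, Ccl25, Ms4a1, Ighm, Cd79a and the gut homing genes outside that rule were named after their values were seen. Alternatives were no filter, a mean above 50, median-of-ratios size factors, a replicate block, only the groups compared, quantile normalization with limma 3.58.1, DESeq2 1.42.0, a pseudocount of 10 and each library left out. Positions came from GENCODE vM21 (GRCm38), promoters from RefSeq. Some genes of the lists are not reported here.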

Additional observations from a re-analysis of the deposited data

Results flagged for a closer look

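The change with Fat1562 differed between VAT and Spl/LN, by the interaction term of edgeR's fit, for 3 of the 6 homing and egress genes and for 1 of their partners, where 3.72% of all tested genes did. The difference, VAT minus Spl/LN on the log2 scale, was 3.59 for Ccr7, which fell in Spl/LN and was already low in VAT. It was -2.82 for Ccr9, which rose in Spl/LN and was already high in VAT. For Klf2 it was -1.79 and for the partner Cd69 -1.89, and in both the called change was that within VAT. The differences of Ccr7, Ccr9 and Cd69 passed the threshold under all 17 alternatives, while that of Klf2 was lost under 9, each of them a fit without 1 library.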

How the results depend on the processing

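With 2 or 3 libraries in a group, small changes of the low transcripts Klf2 and Cxcr5 could not be resolved, and a group left with 1 library is assumed to vary like the others. The calls of Ccr7, S1pr1, Ccr9 and Cxcr5 between the tissues with adjuvant alone, of S1pr1, S1pr4, Klf2, Ccr9 and Cxcr5 after Fat1562, and of Ccr7 and Ccr9 in Spl/LN kept direction and threshold under all 18 alternatives. In VAT with Fat1562 only 1 of the 6 genes was called with only the groups compared or with quantile normalization, and 1 to 2 without 1 library.

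Genes called with Fat1562 in Spl/LN numbered 793 without a filter and 793 with DESeq2, against 515, and 783 in the interaction with DESeq2, against 481. Without a filter (37847 genes) the fit gave each gene the spread of the trend in place of its own (infinite prior degrees of freedom, against a median of 9.847), so its adjusted p-values are much smaller. Quantile normalization took the share of higher calls in Spl/LN from 64.85% to 54.78%. Without 1 library the numbers called were 1250 to 2106 (tissue, adjuvant alone, lowest without VAT adjuvant alone library 1 and 1371 without library 2), 1288 to 2374 (tissue after Fat1562, lowest without VAT Fat1562 library 2), 190 to 500 (Spl/LN, with 337, 190 and 322 without Fat1562 libraries 1, 2 and 3), 509 to 1397 (VAT, with 550 and 509 without adjuvant alone libraries 1 and 2 and 632 without Fat1562 library 2) and 236 to 581 (interaction, with 308 without Spl/LN Fat1562 library 2, 236 and 287 without VAT adjuvant alone libraries 1 and 2, and 277 without VAT Fat1562 library 2).

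Changes that were not called turned sign without 1 library: Klf2 between the tissues with adjuvant alone (-0.11 to 0.22), Ccr7 between the tissues after Fat1562 (-0.038 to 0.86), S1pr1 (-0.094 to 0.039) and Foxo1 (-0.27 to 0.010) with Fat1562 in Spl/LN, Ccr9 (-0.61 to 0.15) and Foxo1 (-0.016 to 0.063) with Fat1562 in VAT, and S1pr4 with Fat1562 over both tissues (-0.061 to 0.068).

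By permutation, 0 to 4 of the 6 genes passed between the tissues without 1 library. It was 0 without any 1 of the Spl/LN libraries with adjuvant alone. Both tissues then hold equal numbers of libraries in each arm. Every arrangement has a mirror image that the two-sided test also counts, which raises the smallest p. The tissue difference of S1pr4 to S1pr1 was 1.401 to 1.53 and of Klf2 to S1pr1 1.06 to 1.20, both with an adjusted p of 0.05 without Spl/LN adjuvant alone library 1 or 3. The Fat1562 difference of S1pr4 to S1pr1 was 0.086 to 0.214, and it passed without Spl/LN adjuvant alone library 2 (adjusted p = 0.033).

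The replicate number as a block called 4 of the 6 genes in the interaction, Cxcr5 now included (adjusted p = 0.049), against 3. Cxcr5 was also called there without a filter (3.3e-04), with DESeq2 (0.0096) and without VAT adjuvant alone library 1 (0.044). Libraries with the same number did not deviate together (r from -0.040 to 0.055 over 15 pairs), so the numbers were not taken as pairs. With the block 1803, 1860, 990, 515 and 437 genes were called in the 5 comparisons. The causes of these shifts were not tested, except that fits without a library hold fewer samples.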
